A study of Mus musculus with 17 samples.

Results

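Genes that mark disease-associated microglia were followed through hippocampal RNA of ageing mice. The 9 genes Clec7a, Itgax, Axl, Spp1, Csf1, Cst7, Lpl, Gpnmb and Cd9 were chosen by name from the 38355 gene identifiers in the count files. All samples were hand-dissected hippocampus of untreated wild type C57BL/6J mice. PolyA RNA was sequenced as single-end libraries at 3 months (3M, 5 libraries) and 24 months (24M, 6 libraries), and as paired-end libraries at 3M (3 libraries) and 29 months (29M, 3 libraries). Comparisons were made within a library type, 24M against 3M single-end and 29M against 3M paired-end. Because all 24M libraries were single-end and all 29M libraries paired-end, a difference between the aged groups cannot be told apart from the library type.

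Microglia are the resident macrophages of the brain. Near amyloid plaques, dying neurons or damaged myelin, part of them take up a state in which homeostatic genes such as P2ry12 and Tmem119 are lowered and a programme of lipid handling, lysosomal and phagocytic genes is raised, in part through the receptor Trem2. The 9 genes belong to that programme and include receptors (Clec7a, Itgax, Axl), secreted signals (Spp1, Csf1), a protease inhibitor (Cst7), a lipase (Lpl) and membrane proteins (Gpnmb, Cd9). Several are also made by other brain cells: Lpl by hippocampal neurons, Cd9 by oligodendrocytes, and Csf1 by neurons and astrocytes.

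The libraries held 9213474 to 28438296 counts on genes. The 24M replicates 1 and 4 differed by less than the sampling noise (a mean squared difference of 0.406 times the binomial variance, against at least 1.23 in all other pairs of the 136). They entered all values and tests as 1 joined sample (the rounded mean), so the 24M group has n = 5. In the 29M replicate 2, reads without a gene were 15.87% of the total, and the single gene Gm42418 took 4.59% of its counts. The 3M single-end replicate 4 had a summed level of 9 striatal marker genes of 538 CPM (counts on genes scaled to the library total) against 194 to 261 in the other samples of its group. The 4 calls of members at 24M and the 3 at 29M in the tests within a library type held with any 1 library left out. Cst7 at 29M did not pass the filter on low counts with all libraries kept. It was called when any 1 of the 3M paired-end libraries or 29M replicate 2 was left out, and not without 29M replicate 1 or 3. Of the 3 samples that the filter needed, 0 at 3M and 2 at 29M reached its cut-off. Leaving out 1 library lowers the number needed, so these calls depend on the filter and are a description. The 7 hippocampal marker genes were detected in every group, with group means of 15.1 CPM or more. Nothing in the labels says that replicates came from separate animals, so p-values measure the spread between these samples.

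Cst7, Clec7a, Itgax and Gpnmb are the members whose change passed the tests below, and the 250 bases upstream of their transcription starts are shown so that the sequence can be read beside the values. They come from RefSeq on the build GRCm38.p6, are written 5′ to 3′ on the strand of the gene, and end at the base before the start. RefSeq held such a window for 8 of the 9 members, and not for Lpl. Capitals mark matches, on either strand, to 5 motifs: AGGAAG (the core bound by PU.1, the factor that defines macrophages), GAANNGAAA (interferon regulatory factors), TGANTCA (AP1), TTCNNNGAA (STAT factors) and CACGTG (E-box, bound by MITF and TFEB). The Cst7 window lies at chr2:150570165-150570414 on the plus strand, that of Clec7a at chr6:129472786-129473035 on the minus strand, that of Itgax at chr7:128129300-128129549 on the plus strand, and that of Gpnmb at chr6:49036268-49036517 on the plus strand.
Cst7: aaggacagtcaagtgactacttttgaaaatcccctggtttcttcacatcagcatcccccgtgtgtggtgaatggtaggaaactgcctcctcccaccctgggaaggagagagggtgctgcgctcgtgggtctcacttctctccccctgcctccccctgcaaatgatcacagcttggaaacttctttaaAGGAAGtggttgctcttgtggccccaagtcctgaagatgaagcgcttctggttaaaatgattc
Clec7a: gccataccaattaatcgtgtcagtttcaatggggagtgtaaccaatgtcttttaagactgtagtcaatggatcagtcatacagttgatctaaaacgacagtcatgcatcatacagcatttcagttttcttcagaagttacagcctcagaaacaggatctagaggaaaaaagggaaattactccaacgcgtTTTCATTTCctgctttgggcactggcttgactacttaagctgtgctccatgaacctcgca
Itgax: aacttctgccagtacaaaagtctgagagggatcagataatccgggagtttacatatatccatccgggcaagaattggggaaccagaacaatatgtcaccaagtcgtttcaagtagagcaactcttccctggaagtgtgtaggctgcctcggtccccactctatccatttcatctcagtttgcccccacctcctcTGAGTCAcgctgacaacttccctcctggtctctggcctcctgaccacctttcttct
Gpnmb: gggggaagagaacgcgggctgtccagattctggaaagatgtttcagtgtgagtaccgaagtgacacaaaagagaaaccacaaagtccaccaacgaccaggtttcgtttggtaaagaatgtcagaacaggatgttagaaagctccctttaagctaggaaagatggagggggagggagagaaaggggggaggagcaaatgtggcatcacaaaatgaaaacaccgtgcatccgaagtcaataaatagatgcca

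In Cst7 the capitals mark the PU.1 core, 63 to 58 bases before the start, in Clec7a an interferon regulatory factor motif on the opposite strand at 60 to 52 bases, and in Itgax an AP1 motif at 56 to 50 bases. The Gpnmb window held 0 matches. Among all 32851 promoter windows, 29.5% held AGGAAG, 6.31% GAANNGAAA, 6.75% TGANTCA, 7.02% TTCNNNGAA and 6.02% CACGTG. Of the 8 members with a window, 4 held AGGAAG (Cst7, Axl, Spp1 and Cd9), 1 GAANNGAAA and 1 TGANTCA, and 0 held the other motifs. The marked matches do not overlap each other. A match of letters is a description of the window and not a binding site.

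At 24M, 4 of the 9 members were higher than at 3M: Cst7 about 10.9-fold, Clec7a 5.77-fold, Itgax 4.09-fold and Gpnmb 1.6-fold. None was lower, also at an unadjusted p under 0.05 and with DESeq2. To be called, a gene needed an adjusted p no larger than 0.05 and a log2 fold change no smaller than 0.5 in size, from the quasi-likelihood test of edgeR with p-values adjusted by Benjamini-Hochberg over 15683 genes. Of all tested genes, 1.34% were called higher at 24M and 0.638% lower. All 9 members had a log2 fold change above 0, with a median of 0.68 and a range of 0.19 to 3.44, while the median of all tested genes was -0.00319. For 6 of the 9 members the lowest 24M sample exceeded the highest 3M sample, which was so for 3.15% of all tested genes. Cst7, Clec7a and Itgax passed the filter on low counts only through their 24M samples, so that they could be tested only because they were high there, and counts and medians that include them are a description. Of the 6 members that passed through their 3M samples, 1 was called (Gpnmb), and their median log2 fold change was 0.29.

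At 29M, 3 of the 8 members that passed the filter on low counts were higher than at 3M: Clec7a 9.24-fold, Itgax 8.59-fold and Gpnmb 2.29-fold. Again none was lower, also at an unadjusted p under 0.05 and with DESeq2. Of 15097 tested genes, 1.34% were called higher and 0.113% lower with edgeR's test and Benjamini-Hochberg adjustment. The log2 fold changes of the 8 members ranged from -0.05 to 3.21 with a median of 0.60, 7 lay above 0, and the median of all tested genes was -0.0021. For 6 of the 8 the lowest 29M sample exceeded the highest 3M sample, against 11.9% of all tested genes. Clec7a and Itgax passed the filter only through their 29M samples, and of the other 6 members 1 was called (Gpnmb), with a median of 0.36. Cst7 did not pass the filter at 29M and is given below from the counts.

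**Figure D1:**
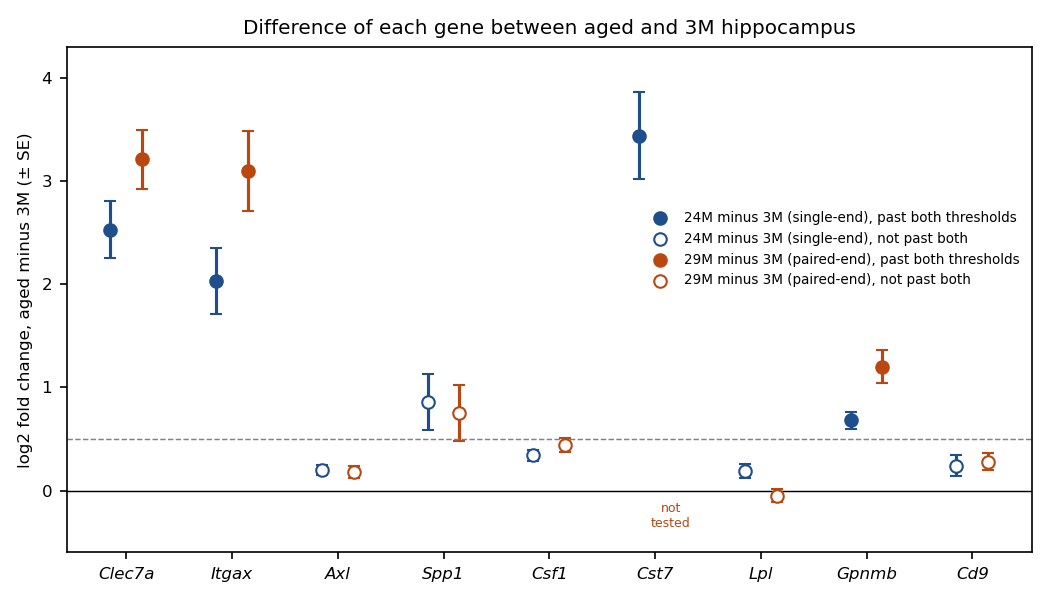
Log2 fold change (aged minus 3M, with its standard error) of each of the 9 genes at 24M against 3M in single-end libraries (blue) and at 29M against 3M in paired-end libraries (orange). Filled points passed both thresholds, the dashed line marks a log2 fold change of 0.5, and Cst7 was not tested at 29M. Cst7, Clec7a and Itgax lie at 2.03 or above, Gpnmb at 0.68 and 1.2, and the other 5 genes at 0.86 or below.

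Bulk tissue was measured, so a change in the number of cells of a type and a change in RNA per cell cannot be told apart. A list of 14 homeostatic microglia genes stands beside the members for this reason. Its summed level was 474 to 541 CPM at 3M and 591 to 623 CPM at 24M, a ratio of means of 1.19. In the paired-end libraries it was 469 to 479 CPM at 3M and 587 to 607 CPM at 29M, a ratio of 1.26. In each comparison 13 of the 14 genes had a log2 fold change above 0, with medians of 0.32 and 0.33. With edgeR 1 of them was called higher at 24M, the ADP receptor P2ry12 (0.52 ± 0.13, SE), and 1 at 29M, Tmem119 (0.51 ± 0.11). Set beside these ratios as values, with no test, the fold changes of Cst7, Clec7a, Itgax and Gpnmb were larger, as were those of Spp1 (1.82 and 1.68), which did not pass. Those of Csf1 (1.26 and 1.36) and Cd9 (1.18 and 1.21) were near them, and those of Axl (1.15 and 1.13) and Lpl (1.14 and 0.969) were below. The part of microglial number in these values was not tested.

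Clec7a encodes Dectin-1, a C-type lectin receptor for beta-glucans that signals through the kinase Syk. The gene lies at chr6:129461591-129472779 (ENSMUSG00000079293, minus strand, GRCm38) and is annotated there as a polymorphic pseudogene. It stood at 0.409, 0.623, 0.389, 0.611 and 0.791 CPM in 3M single-end samples 1 to 5. At 24M it reached 4.45 CPM in the joined replicates 1 and 4, 4.25 in replicate 2, 3.04 in 3, 2.04 in 5 and 2.37 in 6. The lowest 24M sample thus lay above the highest 3M sample, and the 24M samples spread more widely than the 3M samples in CPM (SD 1.09 against 0.167). The paired-end 3M samples held 0.340, 0.327 and 0.360 CPM and the 29M samples 3.45, 2.85 and 3.34 CPM, again without overlap. The log2 fold change was 2.53 ± 0.28 (SE) at 24M (edgeR, Benjamini-Hochberg adjusted p = 0.00031), while at 29M it was 3.21 ± 0.29 (adjusted p = 4.42e-05).

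Its signalling partners did not pass. Syk had log2 fold changes of 0.00 ± 0.12 and 0.05 ± 0.19, and Card9, the adaptor downstream of Syk, 0.31 ± 0.16 and 0.16 ± 0.23.

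Itgax encodes CD11c, the alpha chain of complement receptor 4, which pairs with the beta chain Itgb2 (CD18), and lies at chr7:128129547-128150657 (ENSMUSG00000030789, plus strand). In 3M single-end samples 1 to 5 it was measured at 0.227, 0.623, 0.353, 0.153 and 0.395 CPM. In the 24M samples, in the order above, it was 1.81, 2.05, 1.19, 1.13 and 1.08 CPM, all above the 3M samples. The 3M paired-end samples gave 0.509, 0.131 and 0.270 CPM on 2 to 6 counts, and the 29M samples 2.52, 2 and 3.05 CPM on 21 to 42 counts. The groups did not overlap at either age. Itgax differed by 2.03 ± 0.32 on the log2 scale at 24M (edgeR, adjusted p = 0.0052) and by 3.10 ± 0.39 at 29M (adjusted p = 0.000732). Its partner Itgb2 was also called higher, by 0.56 ± 0.15 at 24M and 1.0 ± 0.13 at 29M on the log2 scale.

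Because CD11c also marks dendritic cells, their 6 marker genes are given beside Itgax. Their summed level overlapped between 3M and 24M (14.8 to 20.2 and 16 to 20.2 CPM), while at 29M it lay above 3M (18.3 to 19.6 against 16.2 to 17.9 CPM). Of the markers that passed the filter, 0 of 3 at 24M and 0 of 2 at 29M were called with edgeR or DESeq2, and 0 and 1 had an unadjusted p under 0.05. No dendritic cell marker was at 0 in all samples of a group. Most of that level came from Flt3 and Zbtb46, and its part in the 29M value of Itgax was not tested.

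Axl is a receptor tyrosine kinase of the TAM family that binds phosphatidylserine on dying cells through the bridging ligands Gas6 and protein S (Pros1). The gene lies at chr7:25757273-25788705 (ENSMUSG00000002602, minus strand). Samples of a group were close to each other, with 57.1, 59.6, 59.3, 59.2 and 60.2 CPM at 3M and 66.9, 70.6, 63.2, 70.2 and 68.5 CPM at 24M. All 24M samples were above all 3M samples, by a small margin: the log2 fold change was 0.20 ± 0.05 (adjusted p = 0.0296, edgeR), under the threshold of 0.5. With 1 library left out the adjusted p lay between 0.018 and 0.0887, on both sides of the threshold. In paired-end libraries 53.6, 57.0 and 56.7 CPM at 3M stood against 67.5, 59.2 and 62.9 CPM at 29M, a difference of 0.18 ± 0.06 that did not pass (adjusted p = 0.136). Of its ligands, Gas6 was at -0.04 ± 0.09 and 0.06 ± 0.04, while Pros1 was at 0.48 ± 0.07 at 24M, just under the fold threshold, and rose by 0.63 ± 0.09 at 29M. The related receptors Mertk (0.26 ± 0.06 and 0.31 ± 0.06) and Tyro3 (-0.26 ± 0.07 and -0.09 ± 0.04) were not called.

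Spp1 encodes osteopontin, a secreted phosphoprotein that binds CD44 and alpha-v integrins, and lies at chr5:104435118-104441050 (ENSMUSG00000029304, plus strand). Its exons overlap those of Gm42793 on the same strand, which is not in the counts. Among the 6 members above 5 CPM at 3M it varied most within groups, with SDs of 33.1% to 40.3% of the mean. At 3M the single-end samples held 6.73, 10.5, 12, 8.56 and 4.94 CPM, and the 24M samples 16.8, 16.9, 6.91, 21.9 and 15.9 CPM. At 24M all samples but replicate 3 were above all 3M samples, and replicate 3 lay among them. In the paired-end libraries 4.5, 7.66 and 10.6 CPM at 3M stood beside 13.4, 7.61 and 16.4 CPM at 29M, with replicate 2 inside the 3M range.

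The log2 fold change of Spp1 was 0.86 ± 0.27 at 24M (edgeR, adjusted p = 0.0732) and 0.75 ± 0.27 at 29M (adjusted p = 0.167), so neither passed. The 24M value passed without 24M replicate 3 (1.06, adjusted p = 0.0243) and under 3 other settings with all samples kept. The 29M value passed without 29M replicate 2 (0.98, adjusted p = 0.0411) and without a filter on low counts (0.74, adjusted p = 7.76e-08). With DESeq2 it did not pass (0.71, adjusted p = 0.767). In edgeR it went down to 0.48 (adjusted p = 0.501) without 29M replicate 3 and to 0.50 (adjusted p = 0.352) without 3M paired-end replicate 1. Its receptor Cd44 was at 0.58 ± 0.22 at 24M, not called, and was called higher at 29M (0.70 ± 0.16). The integrin chain Itgav was not called (0.22 ± 0.09 and 0.25 ± 0.05).

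Csf1 encodes macrophage colony-stimulating factor, one of the ligands of Csf1r, on which microglia depend for survival. The gene lies at chr3:107741048-107760469 (ENSMUSG00000014599, minus strand). It was 28.6, 32.1, 31.0, 30.2 and 31.5 CPM in 3M single-end samples and 40.0, 38.5, 36.3, 40.0 and 38.7 CPM at 24M. The 3M paired-end samples gave 28.9, 31.9 and 28.7 CPM and the 29M samples 40.6, 38.5 and 42.6 CPM. At both ages the groups were well apart, with within-group SDs of 1.37 to 2.03 CPM. On the log2 scale the differences, 0.34 ± 0.05 at 24M (edgeR, adjusted p = 0.00547) and 0.44 ± 0.07 at 29M (adjusted p = 0.00306), passed the p threshold and not the fold threshold. Neither the receptor Csf1r (0.11 ± 0.04 and 0.27 ± 0.04) nor its other ligand Il34 (-0.21 ± 0.10 and -0.07 ± 0.07) was called.

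**Figure D2:**
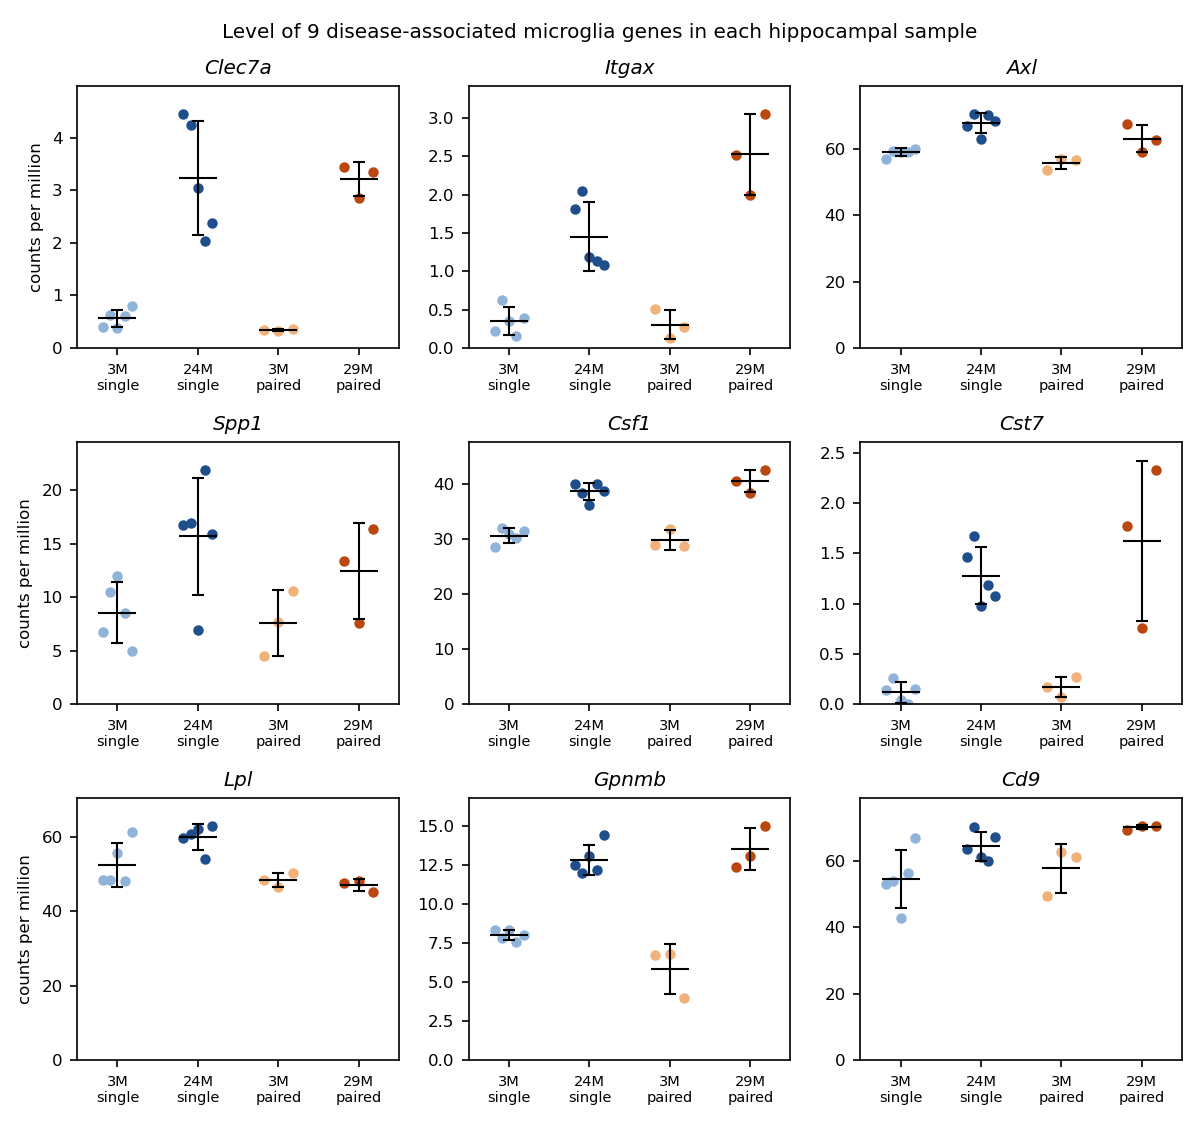
Level in CPM of each of the 9 genes (1 panel each, its own linear axis from 0) in 3M single-end (n = 5), 24M single-end (n = 5, replicates 1 and 4 joined), 3M paired-end (n = 3) and 29M paired-end samples (n = 3). Points are samples and black bars the mean ± SD. Clec7a, Itgax, Cst7, Csf1, Gpnmb and Axl show no overlap between aged and 3M samples, and Spp1 has 1 low sample in each aged group.

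Cst7 encodes cystatin F, an inhibitor of lysosomal cysteine cathepsins, and lies at chr2:150570415-150578944 (ENSMUSG00000068129, plus strand). It was near the limit of detection at 3M, with 0.136, 0.260, 0.0353, 0 and 0.148 CPM in single-end samples 1 to 5, which is 0 to 5 counts. The 24M samples held 1.46, 1.67, 0.979, 1.19 and 1.08 CPM on 10 to 22 counts, all above 3M. The log2 fold change was 3.44 ± 0.42 (adjusted p = 0.000845, edgeR), and with 1 library left out it lay between 3.16 and 3.90.

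In paired-end libraries Cst7 was 0.170, 0.0654 and 0.270 CPM at 3M and 1.77, 0.761 and 2.33 CPM at 29M. All 29M samples were above all 3M samples. The filter removed it there, since the 29M replicate 2 held 8 counts. Over the groups, 61 counts stood against 6, a ratio of rates of 10.7 with an exact 95% interval of 4.63 to 30.2 that covers counting error only. In a fit of all 4 groups together, where it was kept, the log2 fold change at 29M was 3.32 ± 0.60 (adjusted p = 0.00997, edgeR), and with DESeq2 it was 3.34 ± 0.80 (adjusted p = 0.00348). The fit of all 4 groups kept Cst7 only through its aged samples, so that its value there is a description.

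Cystatin F is also made by cytotoxic lymphocytes, so the 8 marker genes of T and NK cells are given. Their summed level overlapped between 3M and 24M (0.459 to 4.33 and 0.825 to 1.74 CPM). The 3M sample with 4.33 CPM, replicate 4, held 3.62 CPM of Cd4 and 0 counts of Cst7, which allows up to 3 counts. It is also the sample with the high striatal level. Cd8a by itself did not overlap, with 0 to 0.102 CPM in 3M single-end samples and 0.152 to 0.765 CPM at 24M. Each of the other markers of this list overlapped between 3M and 24M. The ratio of means of the summed level was 0.707 at 24M and 2.36 at 29M. At 29M the summed level of 1.45 to 1.71 CPM lay above 3M at 0.393 to 1.08 CPM, and Cd8a and Gzmb were at 0 in all 3M paired-end samples. Gzmb was also at 0 in 29M replicate 2. None of the 8 genes passed the filter in either comparison, and their part in the values of Cst7 was not tested. Among the targets of cystatin F, Ctsc (0.34 ± 0.11 and 0.06 ± 0.09), Ctsh (0.39 ± 0.10 and 0.36 ± 0.10) and Lgmn (0.05 ± 0.06 and 0.13 ± 0.04) were not called.

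Lpl encodes lipoprotein lipase, which releases fatty acids from triglycerides, and lies at chr8:68880491-68907448 (ENSMUSG00000015568, plus strand). It stood at 48.4, 48.4, 55.7, 48.2 and 61.4 CPM at 3M and 59.8, 60.8, 62.2, 54.1 and 62.9 CPM at 24M, and the groups overlapped. The paired-end samples held 48.5, 46.6 and 50.3 CPM at 3M and 47.6, 48.1 and 45.1 CPM at 29M. It was not called at either age, with 0.19 ± 0.07 (adjusted p = 0.126, edgeR) and -0.05 ± 0.06 (adjusted p = 0.747), and was the member nearest to 0 in both comparisons. Angptl4, a secreted inhibitor of the lipase, was the only partner gene called lower, at 24M (-0.90 ± 0.22, from 3.09 to 1.71 CPM). At 29M Angptl4 was at 0.14 ± 0.23. The maturation factor Lmf1 was at -0.11 ± 0.07 and -0.07 ± 0.09.

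Gpnmb encodes a transmembrane glycoprotein of lysosomes and melanosomes whose gene is a known target of MITF and related factors. It lies at chr6:49036546-49070929 (ENSMUSG00000029816, plus strand). At 3M it was 8.32, 7.84, 8.34, 7.54 and 8 CPM, and at 24M 12.5, 12, 13.1, 12.2 and 14.4 CPM. The 3M single-end samples were closely spaced (SD 0.335 CPM), and no 24M sample came near them. The 3M paired-end samples held 6.71, 6.81 and 3.96 CPM and the 29M samples 12.4, 13.1 and 15 CPM. Gpnmb was called at both ages, with log2 fold changes of 0.68 ± 0.08 at 24M (edgeR, adjusted p = 0.000524) and 1.2 ± 0.16 at 29M (adjusted p = 0.00132). With 1 library left out, the 29M value lay between 1.0 and 1.34 and was called each time. Mitf (0.27 ± 0.15 and 0.24 ± 0.10), Tfe3 (-0.03 ± 0.05 and 0.08 ± 0.07) and Tfeb (0.15 ± 0.10 and 0.29 ± 0.12) were not called.

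Cd9 encodes a tetraspanin that organises membrane complexes with partners such as Cd81 and Igsf8, and lies at chr6:125460266-125494791 (ENSMUSG00000030342, minus strand). Gm26728 overlaps it on the opposite strand, and the counting is not stated to use strand, so reads of the pair cannot be told apart. Cd9 was 52.9, 54.0, 42.6, 56.2 and 66.9 CPM at 3M and 63.4, 70.1, 61.1, 59.8 and 67.0 CPM at 24M, with overlap. At 29M it was 69.3, 70.4 and 70.4 CPM against 49.3, 62.5 and 61.1 CPM at 3M, without overlap. Neither difference passed, with 0.24 ± 0.10 (adjusted p = 0.137, edgeR) and 0.28 ± 0.08 (adjusted p = 0.0698). Cd81 was at 0.03 ± 0.05 and 0.02 ± 0.04. Igsf8 was at -0.28 ± 0.06 at 24M (adjusted p = 0.027, edgeR), under the fold threshold, and at -0.12 ± 0.03 at 29M.

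The 9 oligodendrocyte markers are set beside Cd9. In each group their summed level was lowest where Cd9 was lowest, as in 3M single-end replicate 3 (4370 CPM, Cd9 42.6 CPM) and 3M paired-end replicate 1 (4880 and 49.3 CPM). The highest samples matched in the 3M paired-end group (replicate 2, 6820 and 62.5 CPM) and not in the single-end groups. At 3M replicate 4 had 7610 CPM with 56.2 CPM of Cd9, and replicate 5 had 6840 with 66.9 CPM. At 24M replicate 6 had 7430 with 67.0 CPM, and replicate 2 had 7120 with 70.1 CPM. In aged samples the summed level of the markers was 6370 to 7430 CPM at 24M and 6130 to 6830 CPM at 29M, against 4370 to 7610 and 4880 to 6820 CPM at 3M. With edgeR 0 of the 9 were called in either comparison. At an unadjusted p under 0.05 there were 1 at 24M and 5 at 29M, all higher, and DESeq2 called 1 at 24M and 0 at 29M. All 9 were detected in every group, and their part in the values of Cd9 was not tested.

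Between members, levels can be compared only per length, and CPM per kilobase of annotated exon was used. At 3M (single-end, mean ± SD, n = 5) Cd9 was highest with 26.7 ± 4.25, then Axl with 11.7 ± 0.234. Csf1 (5.80 ± 0.259), Spp1 (5.19 ± 1.72) and Lpl (5.00 ± 0.568) followed within each other's spread. Gpnmb stood at 1.23 ± 0.0515. Clec7a (0.214 ± 0.0634), Cst7 (0.118 ± 0.104) and Itgax (0.0730 ± 0.0376) were lowest, and neighbours among these 3 did not differ beyond their spread.

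At 24M Cst7 (1.29 ± 0.289 CPM per kilobase) and Clec7a (1.22 ± 0.412) lay within each other's spread, below Gpnmb at 1.97 ± 0.148. At 29M they stood at 1.64 ± 0.804 and 1.22 ± 0.120, and the spread of Cst7 reached Gpnmb at 2.07 ± 0.212. Itgax stayed lowest in both aged groups, with 0.302 ± 0.0930 and 0.526 ± 0.110. Spp1 (9.52 ± 3.30 at 24M, 7.57 ± 2.72 at 29M) did not differ from Csf1 (7.33 ± 0.288 and 7.68 ± 0.384) beyond its spread. The sum of the 9 genes was 203 to 234 CPM at 3M and 248 to 277 CPM at 24M, and 192 to 213 against 243 to 261 CPM in paired-end libraries, ratios of means of 1.24 and 1.23, with most of the counts in Axl, Lpl, Cd9 and Csf1.

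**Figure D3:**
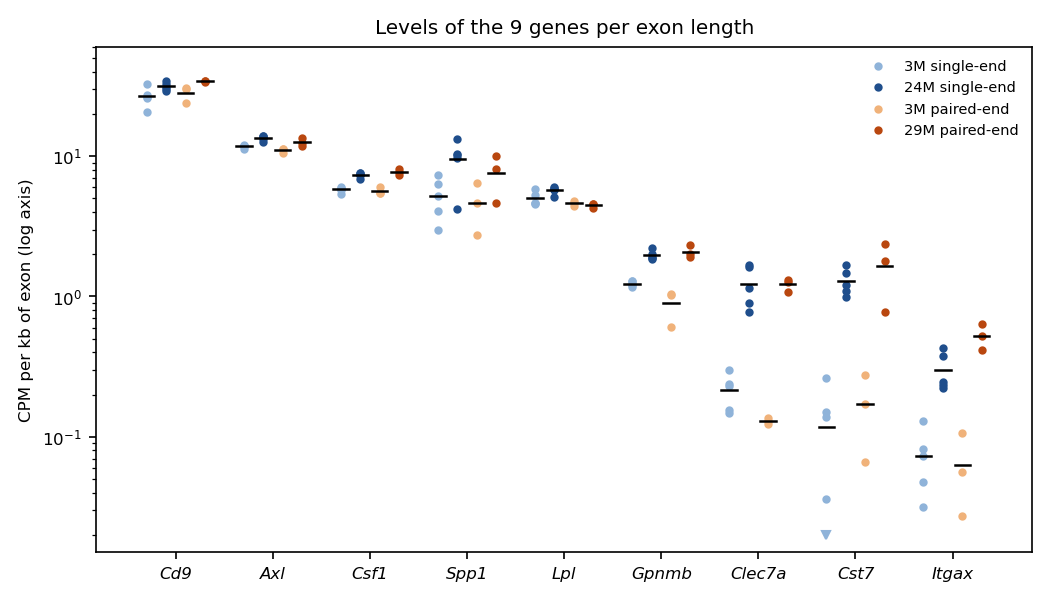
Level of each gene in CPM per kilobase of exon (log axis) in every sample of the 4 groups, with the group mean as a black line and genes ordered by their 3M single-end mean. A triangle marks the 3M sample with 0 counts of Cst7. The 3 genes at the right are lowest at 3M and have means between 0.302 and 1.64 in aged samples.

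Samples of 1 group differed in a shared way for some members. At 24M the joined replicates 1 and 4 and replicate 2 held the highest 2 values of Cst7, Clec7a and Itgax, and replicate 3 was lowest for Cst7, Axl, Spp1 and Csf1. Among 29M samples, replicate 2 was lowest for 6 of the 9 members (Cst7, Clec7a, Itgax, Axl, Spp1 and Csf1) and replicate 3 highest for 6 (Cst7, Itgax, Spp1, Csf1, Gpnmb and Cd9). Replicate 2 is the library with the most reads outside genes and the most Gm42418, and the part of that in its low values was not tested. The same holds for 3M paired-end replicate 1, where Gm42418 took 2.4% of the counts and Axl, Spp1 and Cd9 were lowest of the group, and for 24M replicate 3, which had the largest share of reads without a gene among single-end libraries (12.72%). The homeostatic microglia level of 29M replicate 2, 591 CPM, lay between the 587 and 607 CPM of the other two.

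**Figure D4:**
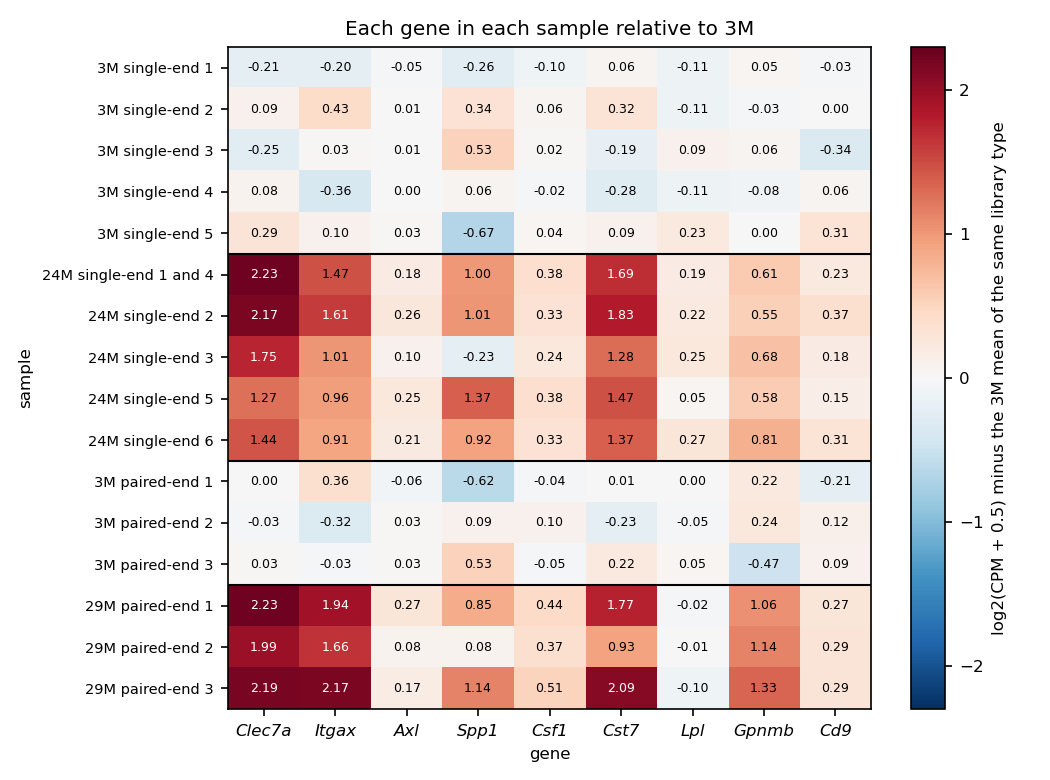
Difference of log2(CPM + 0.5) from the 3M mean of the same library type, for each gene (columns) in each of the 16 samples (rows, grouped by age and library type); red is above and blue below the 3M mean. Clec7a, Itgax and Cst7 are 0.91 to 2.23 above in every aged sample, Gpnmb 0.55 to 1.33, and Spp1 between -0.23 and 1.37.

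Whether the 29M effect differed from the 24M effect was tested as the difference of both contrasts in 1 fit of all 4 groups. With edgeR 0 of the 9 members passed, as did 0 of 16055 genes (0%), although 1674 genes had an unadjusted p under 0.05, and the smallest adjusted p was 0.392. DESeq2 also called 0 members. Gpnmb had the smallest p, with a 29M effect larger by 0.52 ± 0.18 on the log2 scale (adjusted p = 0.392), and Itgax was larger by 1.07 ± 0.60 (adjusted p = 0.544) and Clec7a by 0.68 ± 0.50 (adjusted p = 0.644). Lpl was smaller at 29M, with a difference of -0.24 ± 0.11 (adjusted p = 0.465). For Cst7 (-0.11 ± 0.74) and Spp1 (-0.13 ± 0.49) the errors were too wide to say in which direction the effects differ, and Axl was at -0.02 ± 0.07, Cd9 at 0.04 ± 0.15 and Csf1 at 0.10 ± 0.09.

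Other genes of the same programme were taken as a list of 38, of which 36 were tested at 24M and 34 at 29M. With edgeR 8 of these were higher at 24M, 12 were higher at 29M, and 0 were lower, also at an unadjusted p under 0.05 and with DESeq2. Their median log2 fold changes were 0.26 and 0.22, beside the members' 0.68 and 0.60. The members' medians include genes that passed the filter only through aged samples. For the 6 members that passed through 3M samples they were 0.29 and 0.36. Above 0 lay 32 of the other programme genes at 24M and 28 at 29M, against 49.2% and 49.4% of all tested genes. At both ages 7 were called, among them the receptor Trem2 (0.64 ± 0.09 and 0.84 ± 0.10), its adaptor Tyrobp (0.60 ± 0.09 and 0.81 ± 0.11), lysozyme Lyz2 (1.28 ± 0.23 and 1.55 ± 0.12), the galectin ligand Lgals3bp (0.95 ± 0.20 and 1.48 ± 0.11), the oxidase subunit Cybb (1.37 ± 0.36 and 2.38 ± 0.37) and the MHC class I light chain B2m (0.71 ± 0.15 and 0.65 ± 0.07). The other one was the actin capping protein Capg (0.54 ± 0.14 and 0.80 ± 0.16). In the paired-end libraries Cybb averaged 0.503 CPM at 3M, under the filter's cut-off of 0.842 CPM in 3 samples. It could thus be tested there only because it was high at 29M, and its call at 29M is a description.

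The chemokine Ccl6 was called at 24M and not at 29M (0.93 ± 0.19, against 0.52 ± 0.25 at 29M). Another 5 genes were called at 29M and not at 24M: Cd52 (1.52 ± 0.29), the lysosomal Cd68 (0.75 ± 0.11), the MHC class II chaperone Cd74 (0.88 ± 0.13), Lgals3 (1.01 ± 0.25) and the receptor Tlr2 (1.24 ± 0.21). Since 0 genes passed the test of the difference of effects, these calls are not shown to differ between ages. The 29 ligands, receptors and other partners of the members were tested for 27 genes at each age. Their median log2 fold changes were 0.15 and 0.16. At 24M 1 was called higher (Itgb2) and 1 lower (Angptl4), and at 29M 4 were higher: Itgb2, Cd44, Pros1 and Fcer1g, the Fc receptor gamma chain (0.72 ± 0.14). Csf1r and Itgam stand in both this list and that of homeostatic microglia.

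**Figure D5:**
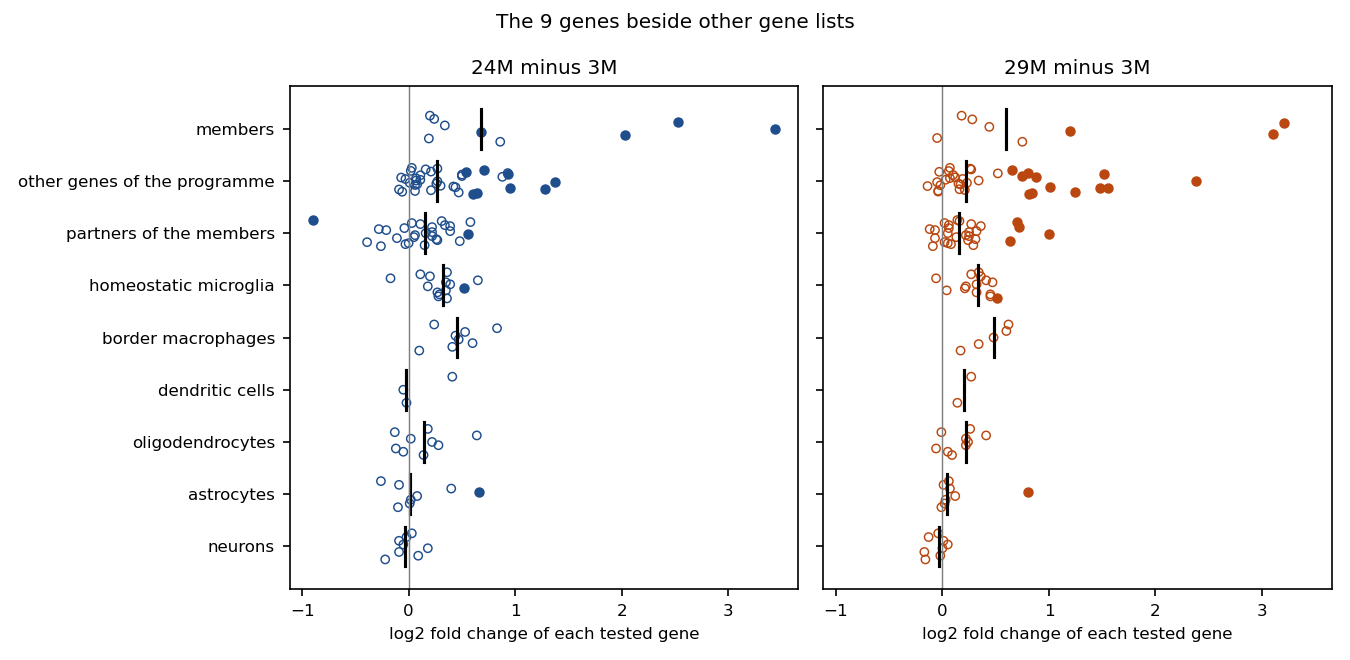
Log2 fold change of every tested gene of 9 lists at 24M (left) and 29M (right); filled points were called, open points were not, and black bars are list medians. The members tested have medians of 0.68 (9 genes at 24M) and 0.60 (8 genes at 29M). Other programme genes have medians of 0.26 and 0.22, and homeostatic microglia 0.32 and 0.33. The members' medians include genes that passed the filter only through aged samples. The 6 members that passed through 3M samples have medians of 0.29 and 0.36.

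Border macrophages, which can express Gpnmb, Spp1 and Clec7a, were followed with 8 markers. Their summed level was 23.9 to 32.7 CPM at 3M and 27.9 to 38.3 CPM at 24M, and 25.7 to 28 against 24.2 to 40.7 CPM at 29M, with overlap both times. With edgeR 0 of the 8 markers tested at 24M and 0 of the 5 tested at 29M were called, 3 and 0 had an unadjusted p under 0.05, and DESeq2 called 1 and 0. The ratios of means of the summed level were 1.21 and 1.22, beside 1.19 and 1.26 for homeostatic microglia. All 8 and all 5 tested markers had a log2 fold change above 0, with medians of 0.45 and 0.48. No marker was at 0 in all samples of a group. The part of border macrophages in the members' values was not tested.

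The 5 genes whose pattern over samples was most like the mean of the 9 members were Mpeg1, Vim, C4b, Trim30d and Pros1. Likeness was the lower of the Pearson correlations of log2 CPM over 10 single-end and 6 paired-end samples, among 14890 genes, given as a description since the age groups dominate it. It was 0.974 and 0.989 for Mpeg1, perforin-2 of macrophages, and 0.981 and 0.974 for Vim, an intermediate filament of glia and vascular cells. For complement C4b it was 0.967 and 0.974, for Trim30d 0.967 and 0.985, and for Pros1 0.983 and 0.964. The mean level of Mpeg1 went from 34.5 to 59.8 CPM and from 31.8 to 55.6 CPM, and that of C4b from 32.3 to 146 and from 37.9 to 261 CPM.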

How the data were processed

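Hippocampal polyA RNA was sequenced in 17 libraries of the 4 groups named above. Reads were aligned by the authors with STAR 2.3.0 (GRCm38.p2) and assigned to genes with HTSeq, and the deposited values are raw counts; which gene models served for counting is not stated. Summary lines without a gene name were left out of library sizes. CPM were counts scaled to the total on tested genes, adjusted by the TMM factors of the fit within each library type. The absence of overlap of Axl at 29M depends on these factors. Exon lengths came from GENCODE. Differences were tested with edgeR 4.0.16 (quasi-likelihood test, TMM, default filter on low counts) under R 4.3.3 and adjusted by Benjamini-Hochberg over all genes tested; standard errors were derived from the F statistic. The main edgeR fits of both comparisons and of the difference of effects were first tried on simulated counts, and the alternatives were not. DESeq2 1.42.0, other filters, other fits and leaving out libraries were alternatives. Members and lists were chosen with earlier results of these data known. All members are named; partners of each member and called genes of a list are named, and the 5 most alike genes. Genes at or under 3 counts per library have wide counting error. Splicing and editing were not analysed here.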

Additional observations from a re-analysis of the deposited data

Results flagged for a closer look

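No member had a sample that stood apart from the others of its group by Dixon's criterion (the gap to the nearest sample divided by the range, in groups of 5). Over the members and the summed levels of gene lists together, 52 groups of 5 were examined and 6 samples stood apart, where chance gives about 2.6. All 6 were among the 34 groups of the lists, where chance gives about 1.7. Striatal markers in 3M single-end replicate 4 were at 538 CPM against 194 to 261 in the others (0.803). T and NK cell markers were at 4.33 CPM in that same sample against 0.459 to 1.30 (0.783), and at 1.74 CPM in the joined 24M replicates 1 and 4 against 0.825 to 0.968 (0.844). B cell markers were at 1.35 CPM in 3M single-end replicate 2 against 0.445 to 0.637 (0.788), and at 2.28 CPM in 24M replicate 2 against 0.538 to 1.02 (0.724). Dendritic cell markers were at 14.8 CPM in 3M single-end replicate 5 against 18.7 to 20.2 (0.712).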

How the results depend on the processing

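Across all alternatives, 260 values of members kept their direction and their call (both thresholds at once), 0 reversed or lost a call, and 6 values, all of Spp1, were called where they had not been. Cst7 at 29M has no value in the main test and is not counted among these. The p threshold alone was crossed more often, by members under the fold threshold. It was lost 9 times by Axl at 24M (adjusted p up to 0.203, with the replicate block; 0.0533 with no filter; up to 0.0887 with 1 library left out, without 24M replicate 2) and once by Csf1 at 24M (0.114, with the replicate block). It was newly met by Cd9 and Lpl at 24M without 3M single-end replicate 5 (0.02 and 0.0246), and by Cd9 at 29M with the replicate block (0.0389), with no filter (0.000767) and without 3M paired-end replicate 2 (0.046, edgeR). Spp1 at 24M passed without a filter on low counts (log2 fold change 0.85, adjusted p = 0.0397), with all 4 groups in 1 fit (0.86, adjusted p = 0.0489), with 24M replicates 1 and 4 kept apart (0.88, adjusted p = 0.04), and without 24M replicate 3 (1.06), and at 29M without a filter (0.74, adjusted p = 7.76e-08, edgeR) and without 29M replicate 2 (0.98). The members called at 29M went from 3 to 5 without a filter, where Cst7 (3.31) was tested, and lay between 3 and 5 with 1 library left out, with 5 without 29M replicate 2. The counts with 1 library left out include Cst7 where it passed the filter through its 29M samples. At 24M they lay between 4 and 5 with 1 library left out, 3 under the stricter filter of 1 CPM, which removed Cst7, and 6 without a fold threshold.
The replicate numbers did not pair the samples (correlations of same-numbered deviations between -0.17 and 0.10). With the replicate block 4 members were called at 24M and 3 at 29M, and over all genes 58 were called higher at 24M, against 210 without it, and 203 at 29M. Calls over all genes moved more than those of members, with 1 library left out to between 91 and 394 at 24M (lowest without 24M replicate 2, highest without 3M single-end replicate 5) and to between 113 and 207 at 29M (lowest without 29M replicate 3). All 4 groups in 1 fit gave 345 and 83, no fold threshold 504 and 351, no filter 368 at 29M, and leaving out the joined pair 112 at 24M. The cause of these shifts was not tested. Genes under 1 CPM are limited by depth.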
